A study of Mus musculus with 11 samples.

Results

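The genes described here are those of the cytosolic ribosomal proteins, the protein components of the ribosomes that translate nuclear-encoded messages. They were picked by gene symbol: names made of Rpl or Rps and a number, with an optional letter and number after it, together with Rplp0, Rplp1, Rplp2 and Rpsa. The rule found 84 of the 23282 entries in the count files, 51 for the large subunit and 33 for the small subunit. It leaves out kinases of ribosomal protein S6 and the proteins of the mitochondrial ribosome. Of the 84 genes, 7 are paralogs with a restricted or poorly known role (Rpl3l, Rpl7l1, Rpl10l, Rpl22l1, Rpl39l, Rps4l and Rps27l), and the other 77 are called core genes below.

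The libraries came from colonic macrophages of mice, defined by the surface markers CD45+CD11b+Ly6G-Ly6C-MHCII+CD64+. All mice belong to an experiment in which 2.5% dextran sodium sulphate (DSS), an agent that damages the colon lining, was given in drinking water over 5 days. There were 3 libraries from mice of the strain Csf1r-EP4-/- at day 0 of DSS (KO day 0), 2 from wild-type mice at day 0 (WT day 0), and 3 of each at day 39 (KO day 39 and WT day 39). EP4 is a receptor for prostaglandin E2 encoded by Ptger4. By its name the strain ties the loss of EP4 to Csf1r, a gene of the macrophage lineage, but the labels give neither the construct, the ages nor whether animals were pooled. Day and replicate number follow the sample titles, although file names in places carry another day and, for 1 WT day 0 library, another number. The labels do not say that replicates came from separate mice, so p-values measure the spread between these samples, which may be technical.

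A ribosome joins a small subunit, which reads the message, to a large subunit, which forms the peptide bond, and each subunit needs its proteins in about equal numbers. Their messages are among the most abundant in nearly every cell type. Many of them start with a run of pyrimidines, the 5′ terminal oligopyrimidine (TOP) tract, through which growth signals acting on the kinase mTOR control their translation together. Several ribosomal protein genes have a paralog whose product can take the place of the usual protein in muscle, testis or stressed cells.

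The library totals ranged from 4003299 to 14207919 counts. Ptger4, the gene named by the genotype, had counts of 1350, 0 and 890 (KO) against 0 and 0 (WT) at day 0, and of 1, 8 and 4501 (KO) against 1481, 152 and 7286 (WT) at day 39. These counts go against the label in KO day 0 replicates 1 and 3 and in KO day 39 replicate 3. The counts are of tags near the 3′ end and the deleted stretch is not given in the labels, so they do not check the genotype, and the groups are called by their labels. The macrophage genes H2-Aa, Csf1r and C1qa were at 1329 counts or more in all 11 libraries, whereas Mertk was at 0 in all and the marker genes Ptprc (CD45), Itgam (CD11b) and Fcgr1 (CD64) were at 10 or fewer counts in 5, 4 and 6 libraries. Markers of skeletal muscle, stroma and epithelium were also present in all libraries. The 3 monocyte markers Ly6c2, Ccr2 and Plac8 reached as many as 2100, 2625 and 2870 counts, although the gate is Ly6C-. The highest count of each of the 4 neutrophil markers was 303 to 886, and of the plasma cell markers Jchain reached 1178 and Mzb1 287. The T cell markers were at 4 or fewer counts and the dendritic cell markers at 10 or fewer in every library.

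Ribosomal protein genes have many processed pseudogenes, and how the authors treated reads that fit several places is not given in the sources used here, so counts of single members are uncertain to that extent. The files list 7 entries named as pseudogenes of members, and they summed to between 7462 and 20997 counts in a library, beside 131386 to 601073 counts of the members. All 84 members were found in RefSeq, where 42 overlap another gene, 30 of them as hosts of small nucleolar RNAs.

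Start regions were examined because the TOP tract is a feature that the choice by name did not use. RefSeq start regions (GRCm38.p6, 250 bases before to 50 after the annotated start) were at hand for 63 of the 84 members, as 75 windows. A start tract was defined as C within 5 bases of the annotated start followed by at least 4 bases that are C or T. It was found in 31 of the 75 windows (41.3%) against 18.3% of all 32851 windows. The letters CCGGAAG, on either strand, were in 36.0% of member windows against 8.86% of all, and AAGATGG, on either strand, in 12 of the 75 against 6.34%. TATAAA, on the gene strand, was about as frequent in members (8.0%) as in all windows (8.32%). A match is a description of the letters only, and a missing tract may mean that the annotated start lies beside the start used.

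The windows below, 40 bases before the start and 20 from it, show a tract in capitals where there is one. Rps9 and Rps26 are among the 12 members with the highest mean level and carry a tract. Rpl4 is also among those 12 and has none at its annotated start, and nor have Rpl22 and Rpl41, whose windows are not shown. The rest of the 12 had no window. Of the paralogs, Rpl22l1 carries a tract, and Rpl3l, Rpl7l1, Rpl10l and Rpl39l carry none. Rps27l differs between its windows. Rpl27a was added after its sequence was seen, for the 20 bases of its tract.
Rps9 (chr7:3704001-3704060, plus strand): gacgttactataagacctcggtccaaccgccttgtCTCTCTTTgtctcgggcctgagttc
Rps26 (chr10:128626487-128626546, minus strand): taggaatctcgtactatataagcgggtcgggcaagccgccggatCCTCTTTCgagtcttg
Rpl27a (chr7:109519155-109519214, plus strand): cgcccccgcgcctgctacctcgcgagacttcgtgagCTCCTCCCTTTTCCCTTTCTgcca
Rpl22l1 (chr3:28805468-28805527, plus strand): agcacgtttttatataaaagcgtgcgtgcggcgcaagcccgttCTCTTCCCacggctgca
Rpl4 (chr9:64173347-64173406, plus strand): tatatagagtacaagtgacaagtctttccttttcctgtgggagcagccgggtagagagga
Rpl7l1 (chr17:46782637-46782696, minus strand): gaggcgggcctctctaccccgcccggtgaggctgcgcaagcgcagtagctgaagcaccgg

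The core ribosomal protein genes were present in nearly every library, in files where most genes drop to a few counts or none in some library. Of the 77 core genes, 69 had more than 10 counts in all 11 libraries, 51 had at least 100 in all and 16 at least 1000 in all. Only 10 of their 847 values were at 10 or fewer counts. Over the 81 members that passed the filter on low counts, 3.93% of values were that low, against 59.7% of the values of the 6906 other tested genes. A filter passed through the highest groups favours high values, so the comparison was repeated within 2 bins of mean count, which match the means only roughly. Among genes averaging 1000 counts or more, 0.812% of values were at 10 or fewer in 56 members and 21.3% in 995 other genes. Among genes with means of 100 to 1000 counts the shares were 7.95% in 24 members and 64.2% in 5040 other genes.

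The low values of core genes fell in 5 of the libraries and concerned 8 large subunit genes and no small subunit gene. WT day 0 replicate 2 held 4 of them, with Rpl35 at 5 counts, Rpl15 at 1, Rpl12 at 0 and Rpl27 at 0. WT day 0 replicate 1 held 2, with Rpl18 and Rpl36 at 0. Rpl27 was also at 1 count in KO day 0 replicate 1 and in WT day 39 replicate 3, Rpl9 was at 8 counts in WT day 39 replicate 3, and Rpl7a was at 4 in WT day 39 replicate 1. Each of these genes is needed in every ribosome and had at least 100 counts in 8 or more of the other libraries. A count of 0 allows up to 3 counts, which is 0.536 CPM in WT day 0 replicate 1 and 0.707 CPM in WT day 0 replicate 2; these limits cover counting error only. CPM stands for counts scaled to a library of 1000000, with TMM-scaled library sizes, where TMM is edgeR's scaling by a trimmed mean of ratios.

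Presence was also measured within groups. Where the other libraries of a group averaged at least 100 CPM for a gene, the remaining library was at 10 or fewer counts in 11 of 714 cases for members (1.54%) and in 11266 of 23439 cases for other genes (48.1%). For the core genes alone it was 6 of 701 (0.856%). Other lists were compared over all values, where 3.93% were at 10 or fewer counts in ribosomal protein members and 1.18% in core genes. Genes of the translation elongation list had 6.49% over 7 genes. Translation initiation factors had 41.4% over 29 genes, ribosome biogenesis factors 60.4% over 14 tested genes, and mitochondrial ribosomal proteins 69.8% over 49 tested genes. With means of 100 to 1000 counts, elongation genes had 18.2% over 2 genes, initiation factors 56.6% over 18, biogenesis factors 65.2% over 12 and mitochondrial ribosomal proteins 67.7% over 42, beside the 64.2% of other genes. With means of 1000 counts or more, 1 of 55 values of elongation genes and 11 of 110 values of initiation factors were that low, beside 21.3% in other genes. Genes of 1 list share the libraries, so these shares describe the 11 libraries and were not tested.

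**Figure D1:**
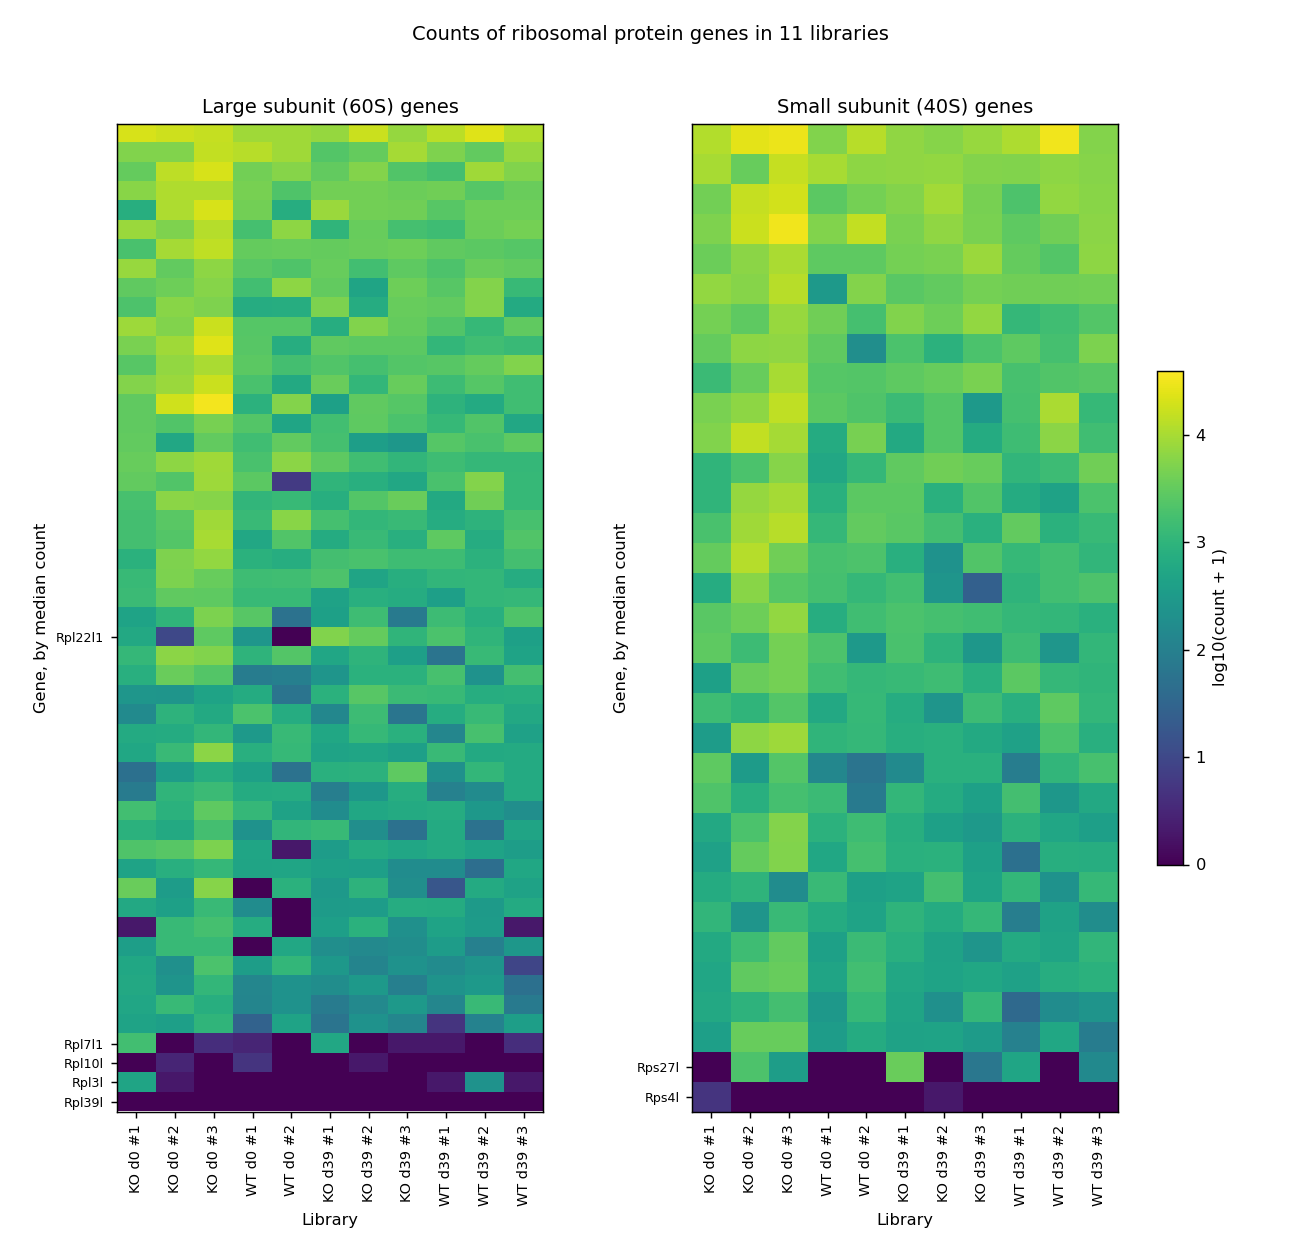
Counts of all 84 ribosomal protein genes (rows, ordered by median count) in the 11 libraries (columns), with large subunit genes on the left and small subunit genes on the right; colour is log10(count + 1), and only the rows of the 7 paralogs are named. Dark cells, which mark counts near 0, lie mostly in the rows of the paralogs, and in the core genes only 10 values of 847 are at 10 counts or fewer.

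Among small subunit genes, Rps20 and Rps9 had the highest counts on average. Rps20, a protein of the small subunit's head, had 11799, 25330 and 28614 counts in KO and 5409 and 12853 in WT at day 0, then 6817, 5925 and 7927 in KO and 11034, 31396 and 5639 in WT at day 39. In CPM its highest library was 5.98 times its lowest and the 4 groups overlapped. Rps9, needed for accurate decoding, had 5091, 16972 and 31572 counts in KO and 5333 and 14901 in WT at day 0, then 4693, 6895 and 4811 in KO and 2835, 3996 and 6303 in WT at day 39. The 3 KO day 39 libraries of Rps9 lay close together at 1321 ± 93.5 CPM (SD, n = 3), whereas KO day 0 gave 1689 ± 756 CPM (SD, n = 3).

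Rps29 and Rps14 spread less over the libraries than most members. Rps29, a small zinc-binding protein of the head, ranged from 3451 to 15404 counts with a median of 6627, a 4.03-fold range in CPM. Rps14, part of the small subunit's platform, ranged from 2086 to 19660 with a median of 5468, a 4.04-fold range in CPM. Rps26 lies at the exit of the message channel. It had 687.6 ± 99.9 CPM in KO day 0 (SD, n = 3), 596 ± 115 in WT day 0 (SD, n = 2), 1474 ± 774 in KO day 39 (SD, n = 3) and 949 ± 499 in WT day 39 (SD, n = 3).

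Rpsa, Rps6 and Rps27a are small subunit genes whose products have roles outside or beside the ribosome body. Rpsa, also known as a laminin receptor, had 349, 6670 and 8379 counts in KO and 1019 and 1160 in WT at day 0, then 759, 835 and 609 in KO and 436, 2017 and 800 in WT at day 39. Its 3 highest libraries were KO day 0 replicates 2 and 3 and WT day 39 replicate 2. Rps6, the substrate of S6 kinases, ranged from 253 to 3086 counts with a median of 642. Rps27a, made as a fusion with ubiquitin, ranged from 729 to 7151 counts with a median of 1556.

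Among large subunit genes, Rplp1 had the highest counts. It encodes an acidic protein of the stalk, the arm of the large subunit that recruits elongation factors, and had 21125, 18101 and 15639 counts in KO and 8793 and 8616 in WT at day 0, then 7505, 17237 and 7341 in KO and 13206, 24224 and 11962 in WT at day 39. Its partner Rplp2 had 8040, 5192 and 12478 in KO and 1783 and 6692 in WT at day 0, then 1008, 3338 and 1759 in KO and 1466, 3763 and 4330 in WT at day 39. Rplp0, on which the stalk is built, had 8581, 5430 and 16919 in KO and 2446 and 2419 in WT at day 0, then 734, 5272 and 3269 in KO and 2244, 1209 and 3033 in WT at day 39. The 3 stalk genes did not share an order of libraries: in CPM, Rplp1 peaked in WT day 39 replicate 2 at 4455, Rplp2 in WT day 0 replicate 2 at 1577 and Rplp0 in KO day 0 replicate 1 at 1379.

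Rpl4, whose protein reaches into the wall of the peptide exit tunnel, is among the 12 members with the highest mean CPM and differed widely between libraries. It had 2970, 18227 and 33387 counts in KO and 884 and 5671 in WT at day 0, then 407, 3015 and 2434 in KO and 945, 649 and 1517 in WT at day 39, a 22.3-fold range in CPM. The day 0 libraries of each genotype overlapped with its day 39 libraries. Rpl32 had a 16.7-fold range, from 125 CPM in KO day 0 replicate 1 to 2086 CPM in KO day 39 replicate 1, and was also low in WT day 0 replicate 2 at 171 CPM. Rpl41, which encodes the shortest ribosomal protein, had a narrower range of 3.55-fold in CPM.

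No member led in all libraries. Rplp1 held the most counts of any member in 4 libraries, Rps20 in 2 and Rpl22 in 2, and Rpl4, Rps9 and Rpl32 in 1 each. The leading member held between 5.37% and 15.5% of the members' counts, and the 5 leading ones between 22.9% and 40.5%. Summed counts of large subunit genes were 1.10 to 1.44 times those of small subunit genes in every library. Counts of tags are not scaled to transcript length, so the order of genes is one of counts and not of transcript numbers.

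The median spread of members between libraries of a group was lower than that of other genes in the same bins of mean count. The spread of a gene was taken as the SD of its log2(CPM + 1) around the group means, pooled over the 4 groups. Its median was 1.07 over the 81 tested members and 3.05 over the 6906 other tested genes. Among genes averaging 1000 to 3000 counts it was 1.17 in 29 members and 3.26 in 790 others, and with means of 3000 to 10000 counts it was 0.747 in 25 members and 1.40 in 173 others. With means of 300 to 1000 counts it was 1.30 in 22 members and 3.48 in 2772 others. The gap was small in the outer bins, which hold few members. With means of 10000 counts or more it was 0.703 in 2 members and 0.796 in 32 others. With means of 100 to 300 counts it was 2.57 in 2 members and 2.94 in 2268 others. A gene with counts near 0 in some libraries has a large SD on this scale, so the low counts described above enter it. With a pseudocount of 10 the medians with means of 1000 to 3000 counts were 1.03 and 2.22. Rpl38 had the smallest SD of the members at 0.467, rank 20 of all 6987 tested genes, followed by Rpl13 at 0.491 and Rps27a at 0.497. Of the core genes Rpl27 had the largest at 3.48, and it is the gene with low counts in 3 libraries. Among the genes with more than 10 counts in all libraries, the ratio of highest to lowest CPM had a median of 9.23 in 69 members (3.27 to 108) and 16.4 in 279 other genes (2.30 to 2325).

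The order of members by level was shared between libraries in part. The Spearman correlation between the CPM of 2 libraries averaged 0.65 across the 81 members (0.49 to 0.83 over 55 pairs), and 0.26 across the 6906 other tested genes. With means of 1000 counts or more it averaged 0.53 across 56 members and 0.25 across 995 other genes, sets that were not matched further for their range of levels. The libraries are common to all pairs and genes are not independent replicates, so these values are descriptive.

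**Figure D2:**
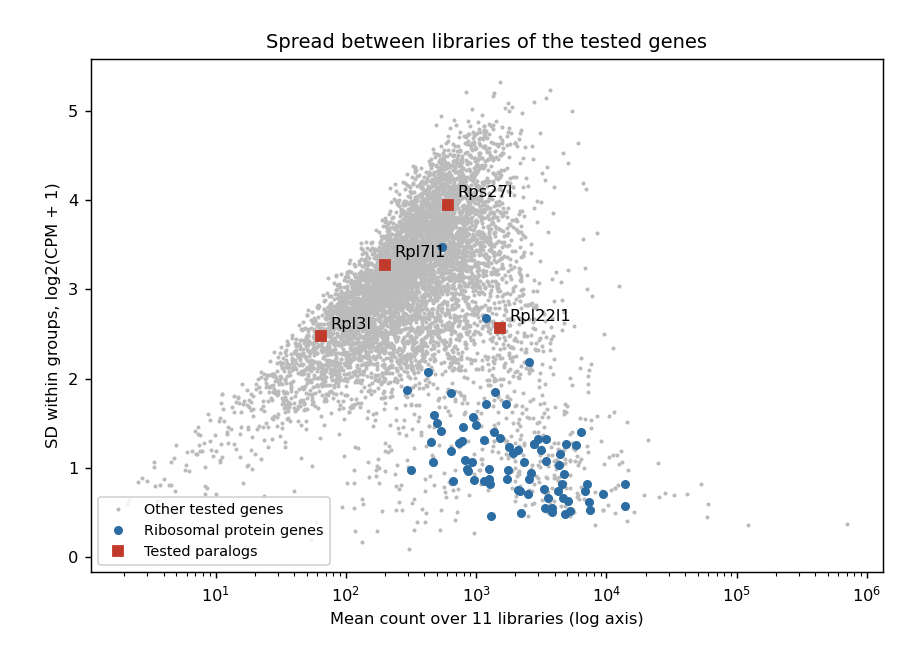
SD of log2(CPM + 1) within groups for each tested gene (vertical axis) against its mean count over the 11 libraries (horizontal log axis), with core ribosomal protein genes in blue, the 4 tested paralogs as red squares and other genes in grey. Most core members lie below the cloud of other genes, with Rpl38 at 0.467, while the paralogs lie within it at 2.48 to 3.95.

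Summed over all 84 members, ribosomal protein counts made up between 3.06% and 4.54% of a library. The KO libraries had 3.52%, 4.54% and 4.23% at day 0 and 3.26%, 3.25% and 3.21% at day 39, and the WT libraries 3.25% and 3.40% at day 0 and 3.28%, 4.22% and 3.06% at day 39. All KO day 0 libraries were above both WT day 0 libraries and above all KO day 39 libraries, while at day 39 the genotypes overlapped, as did the days in WT. On TMM-scaled library sizes both separations were lost: the members summed to 33824, 48359 and 39340 CPM in KO and 25122 and 41058 in WT at day 0, and to 38849, 31282 and 43407 in KO at day 39. The means were 4.10% ± 0.524 in KO day 0 (SD, n = 3), 3.32% ± 0.105 in WT day 0 (SD, n = 2), 3.24% ± 0.0267 in KO day 39 (SD, n = 3) and 3.52% ± 0.613 in WT day 39 (SD, n = 3). No p is given for a sum over members that were chosen with results known.

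The ratio of mean shares was 1.23 for KO over WT at day 0, 0.920 for KO over WT at day 39, 1.06 for day 39 over day 0 in WT and 0.791 for day 39 over day 0 in KO. The 3 libraries with the highest share, KO day 0 replicates 2 and 3 and WT day 39 replicate 2, also had the 3 highest sums of skeletal muscle markers. The 11 muscle markers summed to 25984, 23526 and 16474 CPM in them and to between 2744 and 9875 CPM in the other 8 libraries. Not every muscle marker followed the sum: Atp2a1 had 896 counts in WT day 39 replicate 2, its lowest library, and 1464 to 23109 in the others. Actn3 was at 2 counts in KO day 0 replicate 3 and at 0 in WT day 39 replicate 2. No other muscle marker was at 0 in any of the 11 libraries. The sum of stroma markers was also highest in KO day 0 replicates 2 and 3, at 18479 and 20712 CPM against 3035 to 15210 in the other 9 libraries. Of the stroma markers, Lum had 3 counts in KO day 0 replicate 2, and Pdgfra had 0 and 1 in replicates 2 and 3. The sum of macrophage markers was lowest in the same 2 libraries, at 20684 and 15839 CPM against 26694 to 71557 in the others. Not every macrophage marker followed the sum: Mrc1 had 2077 and 4187 counts in these 2 libraries, against 7 in KO day 39 replicate 1. By CPM on TMM-scaled sizes the 3 libraries highest in ribosomal protein genes were instead KO day 0 replicate 2, KO day 39 replicate 3 and WT day 0 replicate 2. Leaving out the 3 libraries highest in muscle markers, a choice made after seeing the data, left replicate 1 as the single KO day 0 library. Its share was 1.06 times the mean of WT day 0, and the mean of KO day 39 was 0.921 times its share, without a replicate check. With all libraries and TMM-scaled sizes, the ratio of day 39 over day 0 in KO was 0.934. The part of muscle, stroma and macrophage RNA in these shares was not tested. In bulk samples, fewer cells of a type and less RNA per cell cannot be told apart.

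**Figure D3:**
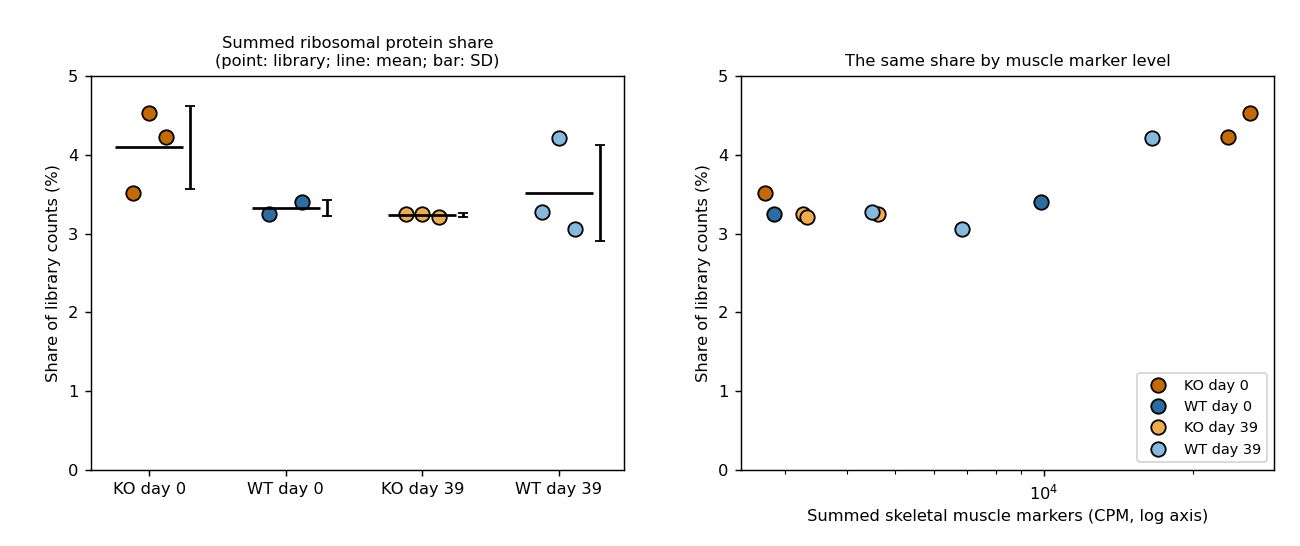
Left, summed share of the 84 ribosomal protein genes in the counts of each library (points), with the group mean (line) and SD (bar beside it); right, the same shares against the summed CPM of 11 skeletal muscle markers (log axis). The 3 libraries above 4.2% are the 3 with the most muscle marker counts, at 16474 CPM or more, and the other 8 lie between 3.06% and 3.52%.

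At day 0, the question is which members differ between macrophages labelled KO and WT at day 0 of DSS. With edgeR's quasi-likelihood test, adjusted over all 6987 tested genes, 0 of 81 members passed 0.05, where 0.0143% of all tested genes did. An unadjusted p under 0.05 was reached by 1 member against 7.99% of all genes. DESeq2 called 1 member, Rps27l, where it called 17.8% of all genes, and limma-voom called 0 where it called 2.55%. The median log2 difference of the members, KO less WT, was 0.36 with 53 of 81 above 0, beside 1.08 over all tested genes. With upper quartile scaling the members' median was -1.65 with 12 above 0 and that of all genes 0, so the sign of the members' median depended on the scaling. Muscle markers summed to 17418 ± 12767 CPM in KO (SD, n = 3) and 6367 ± 4960 in WT (SD, n = 2). Stroma markers summed to 14514 ± 8872 CPM in KO (SD, n = 3) and 9122 ± 8609 in WT (SD, n = 2). Both sums overlapped between the genotypes, and their part in the members' values was not tested.

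In CPM, 10 members lay higher in every KO day 0 library than in both WT day 0 libraries (12.3%), where 6.73% of all genes did. Chosen after their values were seen, Rpl8, Rpl12, Rpl13, Rpl14, Rpl15, Rpl19, Rplp0, Rps2 and Rps27a are among them. Rpl13 had 763, 1116 and 1526 CPM in KO against 456 and 175 in WT. Rps27a had 422.5, 489 and 468 CPM against 130 and 358, and Rplp0 had 1379, 698 and 1107 CPM against 437 and 570.0. The gap between the groups was narrowest for Rps27a and Rplp0 and widest, of these 3, for Rpl13. In the other direction, 2 members lay lower in every KO library (2.47%, all genes 5.25%): Rpl22, with 878, 686 and 991 CPM against 2312 and 2058, and Rpl7. By library size alone, without TMM, the counts were 12 higher and 4 lower (all genes 6.67% and 5.42%). Leaving out a library raises such counts by construction, here to as many as 37 higher without WT day 0 replicate 2 (45.7%, all genes 13.1%) and 19 lower without WT day 0 replicate 1 (23.5%, all genes 20.5%).

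At day 39 of the DSS course, 0 of 81 members passed the edgeR test between the genotypes, where 0.0286% of all genes did, and 0 members had an unadjusted p under 0.05 against 7.29% of all genes. DESeq2 called 0 members (all genes 7.94%) and limma-voom 0 (all genes 0.487%). The members' median log2 difference, KO less WT, was 0.13 with 46 of 81 above 0, beside 0 over all genes. In CPM, 5 members lay higher in every KO library (6.17%, all genes 3.41%), and by choice after seeing values these are Rpl13, Rpl37a, Rps15a, Rps19 and Rps23. Rpl13 thus lay higher in the KO libraries at both days, with 777, 538 and 792 CPM in KO against 335, 286 and 282 in WT. Rps15a had 1364, 759 and 2098 CPM against 358.5, 287 and 518, and Rps19, whose human counterpart is mutated in an inherited anaemia, had 253, 135 and 332.5 CPM against 27.3, 82.8 and 38.8. Rpl35 and Rpl3l lay lower in every KO library (2.47%, all genes 3.99%), but Rpl3l was at 0 counts in KO and at 1, 222 and 1 in WT, so that in 2 of the WT libraries it stands on 1 count, under the floor of 3. By library size alone 6 lay higher and 5 lower (all genes 3.35% and 4.15%). Of the 11 muscle markers, only Pvalb and Tnnc2 passed the edgeR test here, both lower in KO. Pvalb had 3, 1 and 6 counts in KO and 7, 9888 and 624 in WT. Actn3 was highest in a KO library, with 837, 1 and 2 counts in KO and 2, 0 and 0 in WT. The 3 monocyte markers summed to 545, 818 and 1441 CPM in KO and to 8.50, 219 and 3.504 in WT, and the sums did not overlap. Each single marker did overlap: Ly6c2 had 2100, 6 and 2 counts in KO and 6, 556 and 2 in WT. Ccr2 had 1, 1263 and 2625 counts in KO and 7, 633 and 11 in WT. Plac8 had 5, 2870 and 2373 counts in KO and 15, 0 and 3 in WT. The part of muscle and monocyte markers in the members' values was not tested. Leaving out 1 library gave at most 15 members higher, without WT day 39 replicate 1 (18.5%, all genes 8.54%), and 10 lower, without WT day 39 replicate 2 (12.3%, all genes 9.59%).

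In WT libraries, the comparison of day 39 with day 0 gave 0 of 81 members past the edgeR test, where 0.0143% of all genes passed, and 0 members with an unadjusted p under 0.05 against 6.68% of all genes. DESeq2 called 1 member, Rps27l (all genes 16.9%), and limma-voom 0 (all genes 2.42%). The members' median log2 difference, day 39 less day 0, was 0.10 with 45 of 81 above 0, beside 1.64 over all genes, and it was -0.23 with DESeq2's size factors and -1.80 with upper quartile scaling. The gap to all genes may depend on the filter, as it did between the genotypes at day 0. In CPM, 10 members lay higher in every day 39 library (12.3%, all genes 12.7%), of which Rpl3l by a single count in 2 libraries. Among them was Rplp1 with 4009, 4455 and 2620 CPM at day 39 and 1571 and 2030 at day 0. Rpl22, Rpl9 and Rps19 lay lower (3.70%, all genes 4.72%). For Rpl22 the values were 1588, 564 and 1680 CPM at day 39 and 2312 and 2058 at day 0. The sum over the 19 epithelial markers was higher at day 39, at 1166 to 2188 CPM at day 0 and 2846 to 10720 at day 39 in WT, and 249 to 1924 and 5677 to 13409 in KO. Not every marker followed the sum: in WT, Cdh1 had 834, 1340 and 769 counts at day 39, between its 472 and 3645 of day 0. None of the 19 passed the edgeR test (4 in WT and 10 in KO at an unadjusted p under 0.05), and their part in the members' values was not tested. By library size alone there were 7 higher and 8 lower (all genes 12.9% and 5.22%). Without WT day 0 replicate 2 there were 26 higher (32.1%, all genes 20.7%), and without WT day 0 replicate 1 there were 27 lower (33.3%, all genes 19.6%).

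In KO libraries, 0 of 81 members passed the edgeR test between the days, where 0.157% of all genes did. An unadjusted p under 0.05 was reached by 1 member, Rpl3l, against 18.2% of all genes, and DESeq2 and limma-voom called 0 members each (all genes 16.4% and 2.96%). The members' median log2 difference, day 39 less day 0, was -0.33 with 29 of 81 above 0, beside 0 over all genes, and it lay below 0 with each of the 3 other scalings (-0.57 to -0.36). Rps15, a protein near the decoding site, had the smallest p after Rpl3l: it had 871, 1963 and 628 CPM at day 0 and 161, 453 and 198 at day 39, a log2 difference of -2.09 ± 1.49 (SE; adjusted p = 0.421, edgeR). All 3 day 39 libraries of Rps15 lay under all 3 day 0 libraries, and leaving out 1 library gave -2.68 to -1.53.

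In CPM, 8 members lay lower in every KO day 39 library than in every KO day 0 library (9.88%, all genes 3.21%). Chosen after their values were seen, Rpl7a, Rpl10a, Rpl15, Rpl35, Rpl36, Rplp2 and Rps15 are among them. Rplp2 had 1292, 668 and 817 CPM at day 0 and 261, 660 and 507 at day 39, so that its groups were separated by a narrow gap. In the other direction 7 members lay higher (8.64%, all genes 8.07%): Rpl21, Rpl22l1, Rpl23a, Rpl30, Rps4x, Rps15a and Rps26. Rps4x, the X-linked gene of a small subunit protein, had 165, 259 and 387 CPM at day 0 and 778, 807 and 961 at day 39. Rps26 had 598, 795 and 669 CPM at day 0 and 1126, 936 and 2361 at day 39. By library size alone 13 lay lower and 7 higher (all genes 3.59% and 7.8%). Without KO day 0 replicate 1 the number of members lower at day 39 was 22 (27.2%, all genes 10.4%), and without KO day 39 replicate 2 the number higher was 12 (14.8%, all genes 14.6%). Pvalb and Tnnc2, 2 of the 11 muscle markers, passed the edgeR test here as well, both lower at day 39. The monocyte markers summed to 74.7, 3.47 and 130 CPM at day 0, below the 545 to 1441 CPM of day 39. Not every monocyte marker followed the sum: Ccr2 had 1981 counts in KO day 0 replicate 3 and 1 in KO day 39 replicate 1. The part of muscle and monocyte markers in the members' values was again not tested.

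With the genotypes pooled, Rpl21 was the only member whose 6 day 39 libraries all lay above all 5 day 0 libraries in CPM (1.23%, all genes 1.6%), and 0 members lay lower in this way (all genes 0.157%). In KO, Rpl21 had 41.8, 31.9 and 30.7 CPM at day 0 and 227, 508 and 400.0 at day 39, and in WT it had 123 and 13.7 at day 0 and 379, 133 and 166 at day 39. By library size alone, 0 members lay higher and 0 lower in the pooled comparison (all genes 1.65% and 0.2%). Averaged over the genotypes, 0 of 81 members passed the edgeR test of the days (all genes 0.301%), with 1 member at an unadjusted p under 0.05 against 19.2% of all genes. DESeq2 called Rps27l only (all genes 17.4%) and limma-voom called 0 (all genes 2.89%).

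The test of whether the genotypes differ in their change over time, the interaction, called 0 of 81 members and 0 of all genes with edgeR (percent called 0), with 1 member at an unadjusted p under 0.05 against 14.4% of all genes. DESeq2 called Rps27l (all genes 13.4%) and limma-voom called 0 members (all genes 0.272%). The members' median log2 interaction, change in KO less change in WT, was -0.47 with 28 of 81 above 0, beside -1.70 over all genes, and 1.37 with 68 above 0 under upper quartile scaling. The median standard error of a member was 3.32 in the interaction and between 1.72 and 2.59 in the other contrasts, on the log2 scale, so differences of the size seen in most members were not detectable with these libraries.

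**Figure D4:**
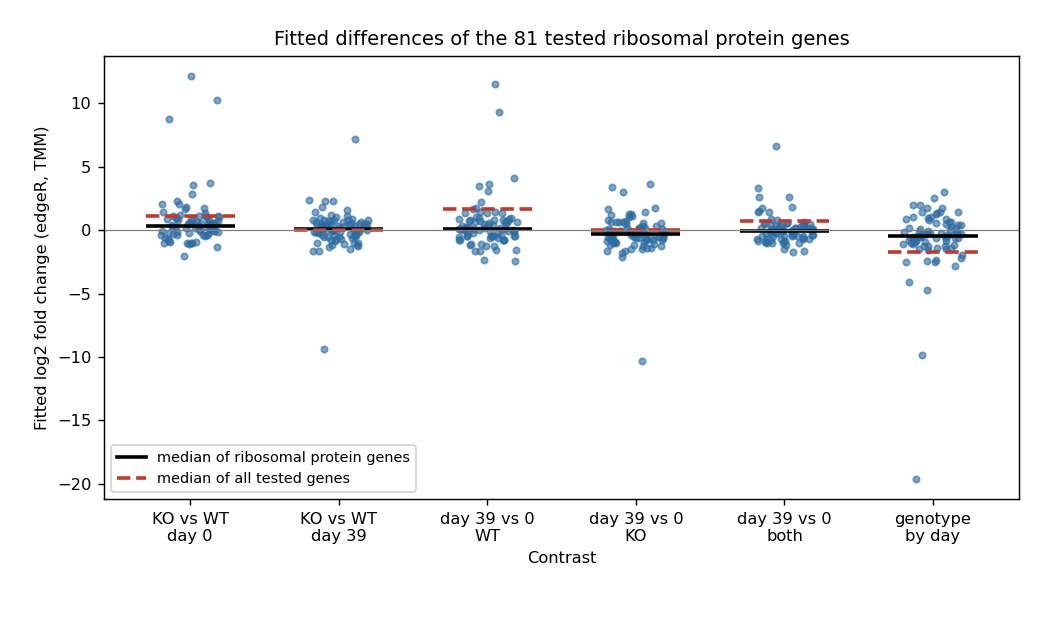
Fitted log2 fold change (edgeR, TMM) of each of the 81 tested ribosomal protein genes (points) in the 6 contrasts, with the median of the members (black line) and of all tested genes (red dashed line). The members gather around medians between -0.47 and 0.36; points far out are paralogs at or near 0 counts in 1 group, whose fitted values depend on the prior count and are not measured folds.

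The paralogs were missing far more often than the core genes: of the 44 values of the 4 tested paralogs, 25 (56.8%) were at 10 or fewer counts, near the 59.7% of the other tested genes. Rpl39l, whose relative Rpl39 ranged from 53 to 5000 counts, was at 0 in all 11 libraries. Rpl10l, a testis paralog of the subunit-joining protein gene Rpl10, had at most 4 counts, while Rpl10 had 740 to 7077. Rps4l likewise had at most 4 counts where Rps4x had 580 to 5914. These 3 paralogs were not tested.

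Rpl22l1 was the most widely present paralog. It had 599, 9 and 2924 counts in KO and 257 and 0 in WT at day 0, then 5341, 3257 and 1022 in KO and 1962, 1003 and 419 in WT at day 39. Its relative Rpl22, an RNA-binding protein of the large subunit that is dispensable for translation in general, had 5462, 5332 and 15134 in KO and 12944 and 8735 in WT at day 0, then 2374, 3213 and 9446 in KO and 5230, 3066 and 7672 in WT at day 39. Rpl22l1 exceeded Rpl22 in KO day 39 replicates 1 and 2 and lay under it in the other 9 libraries. In CPM, Rpl22l1 lay higher in every day 39 library than in every day 0 library of the same genotype, going in KO from 96.3, 1.16 and 191 CPM to 1381, 644 and 294.5, and in WT from 45.9 and 0 to 596, 184.5 and 91.8. Over both genotypes the day 39 libraries overlapped with KO day 0. The averaged log2 difference was 3.33 ± 1.88 (SE; adjusted p = 0.313, edgeR) and it was 2.70 to 8.30 when 1 library was left out.

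Rps27l, a relative of Rps27 that p53 induces, was present in some libraries of each group but WT day 0. It had 0, 2033 and 369 counts in KO and 0 and 0 in WT at day 0, then 3544, 0 and 66 in KO and 506, 0 and 154 in WT at day 39. Against the floor of 3 counts per library in WT day 0, its mean was at least 153-fold higher in KO day 0 and at least 100-fold higher in WT day 39, although in each of these groups 1 of 3 libraries was also at 0. Without the highest library of the group, KO day 0 replicate 2 or WT day 39 replicate 1, these bounds were 19.4-fold and 27.1-fold, a comparison added after seeing the data. The edgeR test gave an adjusted p of 0.381 for the former and 0.414 for the latter, and 0.256 for the days averaged over genotypes. Rps27 itself had 37 to 1687 counts with a median of 491, and Rps27l exceeded it in KO day 0 replicate 2, KO day 39 replicate 1 and WT day 39 replicate 1. DESeq2's adjusted p for Rps27l was 5.79e-09 for KO against WT at day 0 and 1.69e-08 for day 39 against day 0 in WT.

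Rpl7l1, a relative of Rpl7, was at 1617 counts in KO day 0 replicate 1 and 575 in KO day 39 replicate 1, and at 3 counts or fewer in the other 9 libraries. It exceeded Rpl7 in these 2 libraries, where Rpl7 had 159 and 135 counts, and the adjusted p for the genotypes at day 39 was 0.510 (edgeR). Rpl3l, the striated muscle paralog of Rpl3, had 490 counts in KO day 0 replicate 1 and 222 in WT day 39 replicate 2, and at most 1 in the others. Its mean was at least 42.3-fold higher in KO day 0 than in WT day 0, at least 35.3-fold higher in KO day 0 than in KO day 39, and at least 18.5-fold higher in WT day 39 than in KO day 39, each from a single library. The adjusted p was 0.381, 0.273 and 0.491 in these contrasts and 0.324 in the interaction (edgeR). Rpl3l was at 1 and 0 counts in KO day 0 replicates 2 and 3, the libraries with the highest muscle markers. Rpl3, the core gene, had 52 to 1657 counts.

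**Figure D5:**
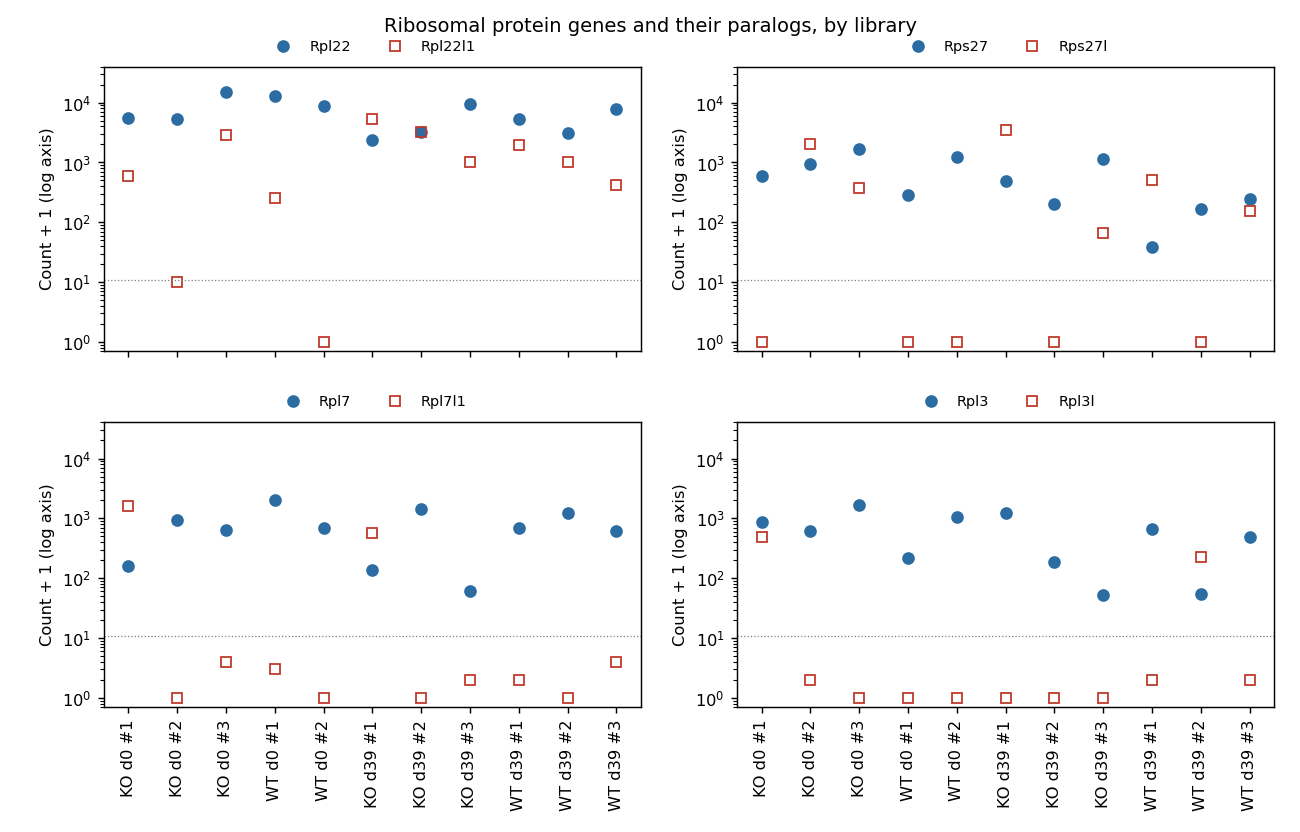
Count + 1 (log axis) of 4 ribosomal protein genes (blue circles) and their paralogs (red open squares) in each of the 11 libraries; the dotted line marks 10 counts. Rpl22, Rps27, Rpl7 and Rpl3 are above the line in all libraries, while the paralogs reach up to 5341 counts in some libraries and 0 in others, often within a group.

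Some components of the ribosome have names that the rule does not take. Fau, which encodes a fusion of a ubiquitin-like protein with a small subunit protein, had 1176 to 6017 counts. Rack1, listed under its older symbol Gnb2l1 and encoding a scaffold on the small subunit, had 140 counts in WT day 39 replicate 2 and 1139 to 16857 in the other libraries. None of the 6 genes of this list passed the edgeR test in any of the 6 contrasts, and 0 had an unadjusted p under 0.05.

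Elongation factors, which act on the ribosome, were at like counts: Eef2, which moves the ribosome along the message, had 8114 to 29585 counts and Eef1a1, which delivers transfer RNA, 907 to 17938. Tpt1, which stands in the elongation list but encodes the translationally controlled tumour protein and no elongation factor, had 5146 to 44093. Of initiation factors, the poly(A)-binding protein gene Pabpc1 had 1739 to 20401 counts and Eif2s2 1235 to 6217. For ribosome assembly the nucleolin gene Ncl had 15 to 10851 counts, whereas Polr1a, a subunit of the polymerase that makes ribosomal RNA, was at 0 in all libraries and Mtor was above 2 counts in 1 library only. By edgeR, 0 genes passed in any contrast of the lists of elongation (7 tested), initiation (29), ribosome biogenesis (14 of 22), mTOR and TOP control (8 of 14) and mitochondrial ribosomal proteins (49 of 77). At an unadjusted p under 0.05, a contrast held 0 elongation genes, 1 to 7 initiation genes, 0 to 2 biogenesis genes, 0 to 2 genes of mTOR and TOP control and 2 to 13 genes of the mitochondrial ribosome, beside 6.68% to 19.2% of all tested genes. The 7 initiation genes fell in the averaged days, where 19.2% of all genes were that low, and the 13 genes of the mitochondrial ribosome in the interaction, where 14.4% were. DESeq2 and limma-voom were not counted over these lists.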

How the data were processed

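The 11 libraries were made with the Lexogen QuantSeq kit from Trizol-extracted RNA, per the labels' protocols, and tag the 3′ ends of transcripts. Values in the deposited files are read counts, whole numbers listed by gene symbol. The submitters' processing notes name Bowtie2, edgeR and the human build hg19 without versions, although the symbols are those of mouse. The treatment of multi-mapping reads, strand and molecular identifiers is not given in the sources used here, and so no coordinates are given for counts.

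Groups were taken from the sample titles. The tests used edgeR (version 4.0.16, under R version 4.3.3) with filterByExpr (6987 genes kept, 81 of 84 members), TMM scaling, robust quasi-likelihood fits with 1 coefficient per group to all 11 libraries, two-sided tests and Benjamini-Hochberg adjustment over all tested genes at 0.05. Each standard error was derived from the log2 fold change and its F statistic. CPM values use TMM-scaled sums over tested genes. The common BCV (biological coefficient of variation, the spread edgeR fits) was 2.48. The procedure was also run on simulated counts that spread far less between libraries than these. That run therefore says nothing about missed or false calls here. Deviations of same-numbered samples from their group means correlated at -0.01 to 0.07 over 15 pairs, and those of 30 other pairs at -0.07 to 0.05. Deviations from means of so few libraries cannot exclude a pairing.

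Members and gene lists were chosen with earlier results of these data known. Named genes are members passing the test, the 12 highest in mean CPM, the 2 with the smallest p in each contrast, the stalk genes, Rpsa, Rps6, Rps27a and the paralog pairs, and, of other lists, the 2 highest in mean CPM with Fau, Rack1 and Eef1a1. A few genes that this rule takes are not reported here. Fold changes are given only for members named by p. Genes named for groups that do not overlap were chosen after their values were seen. Alternatives were other scalings, filters and tools (DESeq2 1.42.0, limma-voom in limma 3.58.1), a replicate block, leaving out libraries, and other denominators. The SD within groups and its pseudocounts were chosen after seeing the data.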

Additional observations from a re-analysis of the deposited data

How the results depend on the processing

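The number of ribosomal protein genes called stayed at 0 in all 6 contrasts under each other scaling, filter and edgeR fit to all libraries. It stayed at 0 when any 1 library of the groups in a contrast was left out. For contrasts between a pair of groups, leaving out a library of the other groups, which share the fit, was not tried. A fit to the compared groups alone was made only for these contrasts and called 0 as well. The number was 0 with limma-voom too. It was also 0 without the libraries that Ptger4 or muscle markers set apart, but each of these sets leaves 1 KO day 0 library, as leaving out a WT day 0 library leaves 1 there. Such a lone library is assumed to vary like the other groups, so these counts of 0 say little about stability. DESeq2's test gave 1 (Rps27l) in 4 contrasts, namely the genotypes at day 0, the days in WT, the averaged days and the interaction, and the cause was not tested. A replicate block gave 0 in all 6. The share ratio for KO over WT at day 0 was 1.17 to 1.32 with 1 library left out and 1.06 without the 3 libraries highest in muscle markers, which leaves 1 KO day 0 library. Its range was 0.739 to 0.836 for day 39 over day 0 in KO, with 0.921 without those 3 libraries and 0.934 on TMM-scaled sizes, 0.864 to 1.02 for the genotypes at day 39 and 0.954 to 1.13 for the days in WT. The fitted interaction of Rps27l was -9.81, and 1.69 without the 3 muscle-high libraries, a setting chosen after seeing the data. Rps27l is at 0 in both WT day 0 libraries and in the KO day 0 library that remains, so neither value is a measured fold.

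By library size only, also chosen after seeing the data, members lying lower numbered 4 for KO against WT at day 0, 5 at day 39, 8 over the days in WT and 13 in KO (all genes 5.42%, 4.15%, 5.22% and 3.59%). With 1 library left out, which can raise such counts by construction, the ranges were 14 to 37 higher and 2 to 19 lower at day 0, 8 to 15 and 4 to 10 at day 39, 12 to 26 and 6 to 27 over the days in WT, and 7 to 12 and 9 to 22 in KO. Over all tested genes they were 11% to 15.8% higher and 7.28% to 20.5% lower at day 0, 5.08% to 9.09% and 6.58% to 10.2% at day 39, 16% to 23.6% and 6.27% to 19.6% over the days in WT, and 10.5% to 14.6% and 4.61% to 10.4% in KO. The share of low values in members where the rest of a group averaged at least 100 CPM was 1.08% to 1.89% with 1 library left out. Depth, 3 replicates or fewer and a common BCV of 2.48 limit all comparisons between groups.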
